A study of Mus musculus with 8 samples.

Results

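Open chromatin was examined around 9 genes of alveolar macrophages (AMs): the cathepsins Ctsk, Ctss, Ctsb, Ctsd, Ctsl, Ctsz, Ctsh and Ctsc, and Prune1, which lies close to Ctsk and Ctss on chromosome 3. The genes were chosen by name, with earlier results of these data known, and their regions were taken by position alone. Every ATAC-seq peak of any library that overlapped one of these gene bodies, or the 20 kb on either side, was taken, and peaks of different libraries were merged into 1 region where they shared a base. This gave 85 regions of the 82424 merged regions in the genome (coordinates in mm10, gene models of GENCODE M21). ATAC-seq uses a transposase that cuts accessible DNA, and a peak is a place where its cuts pile up above the local background. AMs live in the airspaces of the lung, and here they were sorted from bronchoalveolar lavage of adult mice. The study's main ATAC-seq legend describes the cells of both genotypes as mature AMs from 9-week-old mice. Some of its supplementary legends name immature AMs for KO.

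The 8 libraries were in 2 groups, and all animals carried floxed alleles of both Rxra and Rxrb, which encode retinoid X receptors (RXRs). In the 4 KO libraries (CD11cCre+ Rxrabfl/fl, replicates 1_2, 1_3, 2 and 3), Cre driven by the CD11c promoter deleted both genes in cells that express CD11c, AMs included but also dendritic cells. The 4 WT libraries (CD11cCre- Rxrabfl/fl, replicates 1_2, 1_3, 3 and 4) came from littermates with the same floxed alleles and no Cre. The comparison asks whether chromatin at these genes differed where the receptors were deleted. The submitters describe the libraries as individual biological replicates, but the labels leave unsaid if an animal gave both replicate 1_2 and replicate 1_3.

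Cathepsins are proteases of the endosomes and lysosomes, where they digest what a macrophage takes up. Most of the members are cysteine proteases, among them cathepsin K, which cleaves collagen and is best known from osteoclasts, and cathepsin S, which trims the invariant chain of MHC class II molecules. Cathepsin D is an aspartic protease, cathepsin H mainly an aminopeptidase, cathepsin Z a carboxypeptidase, and cathepsin C a dipeptidyl peptidase that activates granule proteases. Prune1 encodes a phosphoesterase of the DHH family. RXRs bind DNA mostly as heterodimers with other nuclear receptors, and with PPARγ, a receptor that AMs need, they prefer direct repeats of a half-site with 1 base between the repeats (DR1).

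The windows of 201 bases scanned for motifs were centred on the highest summit of each region. They are printed for the 4 noncoding regions the account below turns on, the Ctsk promoter, the strongest region between Ctsk and Ctss, the region that was lower in KO and the region called only in WT. All are on the plus strand of GRCm38, read 5′ to 3′, and capitals mark a motif match, found in 1 of the 4.
Ctsk promoter, chr3:95499550-95499750: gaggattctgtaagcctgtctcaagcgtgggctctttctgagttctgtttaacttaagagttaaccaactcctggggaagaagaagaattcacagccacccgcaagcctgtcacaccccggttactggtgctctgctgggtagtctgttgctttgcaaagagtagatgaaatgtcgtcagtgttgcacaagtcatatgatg
Between Ctsk and Ctss, chr3:95511903-95512103: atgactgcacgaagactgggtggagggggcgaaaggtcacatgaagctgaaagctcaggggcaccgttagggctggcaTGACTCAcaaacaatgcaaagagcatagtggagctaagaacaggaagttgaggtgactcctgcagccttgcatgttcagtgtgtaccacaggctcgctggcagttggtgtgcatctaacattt
Fdft1 intron in the Ctsb window, chr14:63150173-63150373: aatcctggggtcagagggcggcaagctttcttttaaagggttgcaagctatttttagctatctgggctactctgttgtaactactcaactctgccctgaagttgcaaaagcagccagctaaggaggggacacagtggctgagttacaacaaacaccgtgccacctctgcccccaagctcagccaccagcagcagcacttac
Ctss intron, chr3:95539884-95540084: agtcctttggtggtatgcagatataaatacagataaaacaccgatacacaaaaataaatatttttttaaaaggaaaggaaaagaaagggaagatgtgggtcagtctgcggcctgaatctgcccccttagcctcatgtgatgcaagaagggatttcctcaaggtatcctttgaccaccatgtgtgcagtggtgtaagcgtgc

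For the promoter regions whose window held a match, only the 30 bases around it are shown, on the strand of the match. The PU.1 letters GAGGAAGT, named after the macrophage factor encoded by Spi1, were found at 3 of the 9 promoters, those of Ctss, Prune1 and Ctsc. The CLEAR letters TCACGTGA, an element that TFEB and its relatives recognise at lysosomal genes, were found at the Ctsd promoter. No other scanned window of the 85 regions held them, and bases outside the windows were not scanned.
Ctss promoter, chr3:95526773-95526802, minus strand: gcatccacaatGAGGAAGTgaactttcatt
Prune1 promoter, chr3:95281758-95281787, plus strand: ccgaaccccagGAGGAAGTgcgtaatccgg
Ctsc promoter, chr7:88277923-88277952, minus strand: cgaggtggcctGAGGAAGTtagttagtgac
Ctsd promoter, chr7:142387908-142387937, plus strand: ccctcaacgggTCACGTGAgacgcgggcga

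DR1 was searched as AGGTCA, 1 free base and AGGTCA again, on both strands, with at most 2 mismatches over the repeats. It matched in the scanned windows of 5 of the 85 regions, of which 3 had a peak in all 8 libraries. The match in intron 4 of Prune1 had 1 mismatch and each of the others had 2. They are shown because DR1 is the repeat that RXRs with PPARγ prefer. Repeats with other spacings, which RXRs with other partners may use, were not searched.
Prune1 intron 4, chr3:95263542-95263584, plus strand: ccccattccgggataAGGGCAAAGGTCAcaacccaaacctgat
Ifitm10 intron 2 in the Ctsd window, chr7:142356318-142356360, plus strand: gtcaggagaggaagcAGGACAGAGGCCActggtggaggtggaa
Upstream of Ctsd, chr7:142398160-142398202, minus strand: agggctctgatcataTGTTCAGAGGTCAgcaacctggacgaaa
Ctsc gene body, chr7:88296099-88296141, minus strand: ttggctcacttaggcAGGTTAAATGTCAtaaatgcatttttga
Downstream of Ctsc, chr7:88319545-88319587, plus strand: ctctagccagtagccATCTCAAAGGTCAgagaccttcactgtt

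The share of regions with a DR1 match in the scanned window was 5.88% of the 85 and 4.13% of all merged regions. PU.1 letters were in 11.8% and 10.5%, counted in the same windows as all shares here. The AP-1 letters TGANTCA were in 11 of the 85 regions, 12.9%, and in 11.7% of all. CLEAR letters were in 0.415% of all regions and in 0.964% of the 17741 regions with a summit within 1 kb of a transcript start. In that same set PU.1 letters were in 4.71%. These are matches of letters, and these libraries did not measure binding. In a separate assay the study mapped RXRα binding in AMs. It lists Ctsk and Prune among the genes it assumes RXRs control directly.

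Each peak list gave no read counts, so the number of overlapping tags (transposase cuts, each extended to 200 bp) at a peak's summit was worked back from the fold and p-value of the peak caller. A summit tag count is the height of the peak in 1 library, and it exists only where that library had a peak. The libraries differed in depth: the median summit height over the 47499 regions that every list held ranged from 57 to 68 tags in KO and from 60 to 91 in WT. WT replicate 1_3 was the deepest. Tags below are as counted. For each comparison log2(tags + 0.5) was centred on the library's median over those 47499 regions, KO was compared with WT by limma over all of them, and a region was called at a Benjamini-Hochberg adjusted p under 0.05. Values are relative to each library's median, so a change common to most regions would not be seen, and the median region had a KO minus WT difference of 0.043 on the log2 scale.

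Some facts of the whole set bear on the members. A region in intron 4 of Rxra (chr2:27744546-27744950) had a peak in all 4 WT and no KO library, with 38 to 46 tags, while promoter peaks of both deleted genes were in all 8 libraries. Promoter peaks of 7 of 8 AM markers (Siglecf, Marco, Car4, Fabp4, Itgax, Mrc1 and Pparg, but not Chil3) and of Ptprc, Spi1, Csf1r and Cd68 were in all 8 libraries. Their mean heights, as counted and with no correction for depth, were lower in KO at each of these but Itgax. Fabp4 had 50.25 tags in KO and 95 in WT, Siglecf 58 and 82.5, and Itgax 171.5 and 136.25. No library had a peak at the promoters of the T cell markers (Cd3e, Cd3g, Trac) or the eosinophil markers (Prg2, Epx, Il5ra), and 1 WT library had one at Pax5. The promoters of S100a8, Mmp8 and Cxcr2 from the neutrophil list and of Epcam, Cdh1 and Pecam1 had peaks in all 8 libraries, with mean heights of 16 to 168 tags in KO and 23 to 190 in WT, while Sftpc, Cdh5 and Tek had none. The study counts Cdh1 and Mmp8 among the core genes of AMs, so peaks there do not mark other cells alone. The part of other cells in the values below was not tested.

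All 9 genes had an open region at or near their start in both genotypes. The promoter region overlapped the start of a protein-coding transcript or lay within 1 kb of one. It had a peak in 8 of 8 libraries for every member. In the limma fit 2 of the 9, those of Prune1 and Ctsd, were called, both higher in KO. Over all tested regions 5.81% were called higher, and the share among promoters alone was not counted. With libraries scaled by background depth in place of their median, neither promoter was called (adjusted p = 0.25 and 0.47). Of the 85 regions, 55 (64.7%) had a peak in all 8 libraries, against 57.6% of all merged regions. Another 23 had a peak in 2 to 7 libraries and 7 in a single one. By the summit, 11 lay in exons, 33 in introns and 41 between genes, and 18 lay within 1 kb of a transcript start.

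Among the 55 regions that could be compared, 1 was lower in KO and 3 were higher. The background for these counts was 7.03% of all tested regions lower in KO and 5.81% higher, where the members had 1.82% and 5.45%. Neither share was above that of the genome. Differences were below 0 in 24 regions and above 0 in 31, with a median of 0.07 (log2) against 0.04 over all tested regions. An unadjusted p under 0.05 was reached by 12 of the 55 regions and by 26.2% of all regions. When libraries were scaled by their background depth in place of their median, 0 members were higher and 1 was lower, and over the genome the lower share of the calls went from 54.7% to 77.6%.

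**Figure D1:**
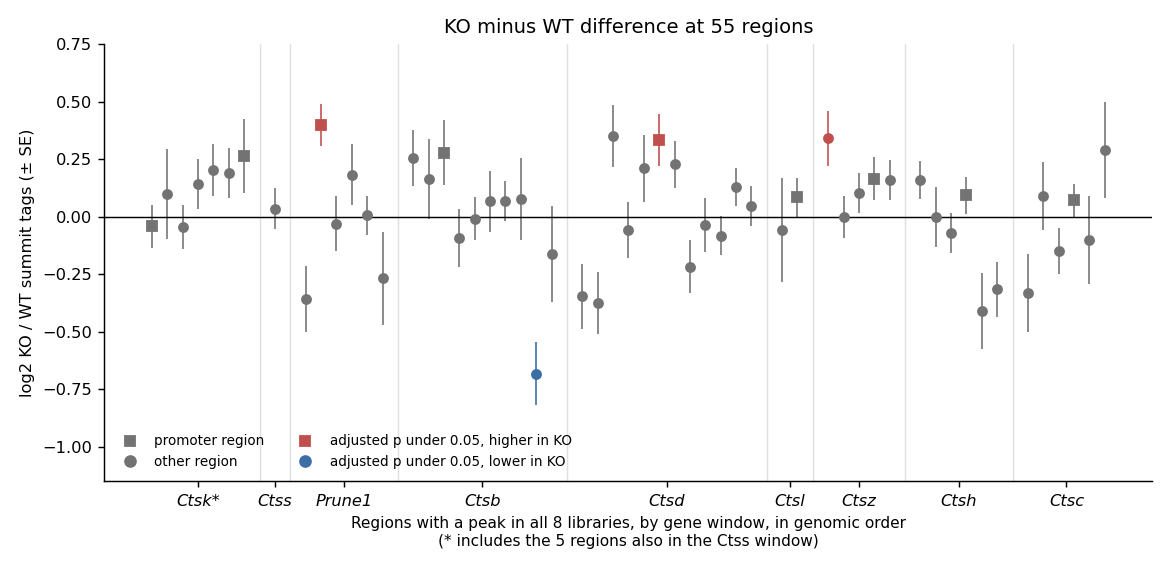
KO minus WT difference in log2 summit tags (vertical axis, point with standard error from limma) at each of the 55 compared regions, grouped by gene window along the horizontal axis. Squares are promoter regions. The region in the Ctsb window at -0.68 stands below all others, and the 3 regions called higher in KO lie between 0.33 and 0.40.

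The region that was lower in KO lay in the Ctsb window but inside another gene. It was at chr14:63150100-63150822, in intron 9 of 9 of Fdft1, which encodes squalene synthase, the enzyme that commits isoprenoids to sterol synthesis, and its summit was 27.5 kb from the nearest transcript start, that of Fdft1. It had 47, 59, 46 and 38 tags in KO (here and below in the order of replicates 1_2, 1_3, 2 and 3) and 75, 102, 97 and 80 in WT (replicates 1_2, 1_3, 3 and 4). Every KO library was below every WT library, in tags as counted and after centring. The difference was -0.68 ± 0.14 (log2, SE), or 1.61-fold more tags in WT, with an adjusted p of 0.00037. It was called under every one of the 18 other settings of the fit, with values from -0.77 to -0.63. Its nearest neighbour in the same intron, chr14:63148554-63149138, had 30 to 42 tags in KO and 26 to 50 in WT and a difference of 0.08 ± 0.18. This Fdft1 region is 1 of 3 members in which all centred KO values were below all WT values, a pattern found in 7.91% of all tested regions.

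Ctsb itself (chr14:63122462-63145923, plus strand), which encodes an abundant cysteine protease of lysosomes, had 13 regions in its window, and 10 could be compared. Its promoter region, with the summit in the 5′ UTR of exon 1, had 60, 74, 78 and 53 tags in KO and 56, 80, 57 and 60 in WT. The groups overlapped, and the difference of 0.28 ± 0.14 was not called (adjusted p = 0.203, 95% interval from -0.01 to 0.56). The strongest other region, in intron 1 (chr14:63132230-63132762), was higher, with 203, 228, 182 and 168 tags in KO and 184, 273, 218 and 194 in WT, and held 2 AP-1 matches. Its difference was 0.07 ± 0.09 (95% interval from -0.11 to 0.24). The other 3 regions of intron 1 had differences from -0.09 to 0.07 and none was called.

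**Figure D2:**
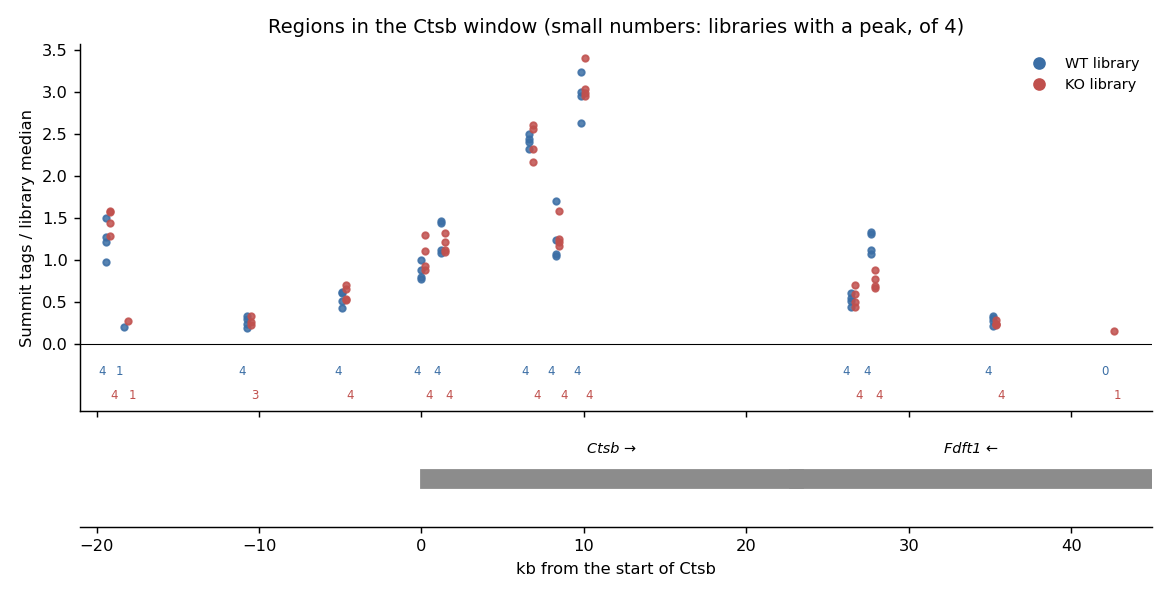
Relative height of every peak in the Ctsb window, as summit tags divided by the library's median over regions with a peak in all 8 libraries (vertical axis), by distance from the Ctsb start in kb. Each point is 1 library, the small numbers count WT (upper) and KO (lower) libraries with a peak, and the Fdft1 intron region at 27.8 kb is the place where the KO points lie below the WT points.

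Prune1 (chr3:95253674-95282076, minus strand) had the promoter with the most clearly separated genotypes. The region at chr3:95281621-95282058, with its summit in the 5′ UTR of exon 1, had 198, 177, 160 and 178 tags in KO and 154, 179, 166 and 130 in WT. As counted the groups overlapped, with WT replicates 1_3 and 3 within the range of KO. After centring every KO library was above every WT library, as in 3 members and in 8.25% of all tested regions. The difference was 0.40 ± 0.09, or 1.32-fold more in KO, with an adjusted p of 0.0019. It held in 17 of 18 other settings, and with libraries scaled by background depth it was 0.34 with an adjusted p of 0.25. The PU.1 letters printed above lie 68 bases from the summit.

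Elsewhere in the Prune1 window no region was called. The strongest, chr3:95293547-95294082 in intron 7 of Mindy1, a neighbouring deubiquitinase gene, had 343, 287, 282 and 259 tags in KO and 333, 352, 338 and 324 in WT. The groups overlapped after centring and the difference was 0.00 ± 0.08 (95% interval from -0.17 to 0.18). Intron 4 of Prune1 (chr3:95263189-95263774), which holds the DR1 match printed above, had 55, 59, 37 and 41 tags in KO and 62, 95, 70 and 59 in WT. Every centred KO value there was below every WT value, but the difference of -0.36 ± 0.14 was not called (adjusted p = 0.094). Of the other regions with a DR1 match and a peak in every library, the Ifitm10 intron differed by -0.35 ± 0.14 (adjusted p = 0.099) and the region upstream of Ctsd by -0.08 ± 0.08 (adjusted p = 0.57). A further intron region of Prune1, chr3:95267854-95268267, had 27, 43, 30 and 30 tags in WT and a peak in 2 KO libraries only, with 21 and 16 tags.

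Ctsk (chr3:95499256-95509362, plus strand) had 10 regions in its window and 0 of the 7 compared were called. Its promoter region, chr3:95499457-95499904, had its summit in intron 1, 0.394 kb from the nearest transcript start. The region lay downstream of that start and did not cover it. A region with its summit 0.342 kb from the start on the upstream side, chr3:95498817-95499017, had a peak in KO replicate 2 only, with 38 tags. It had 170, 150, 130 and 136 tags in KO and 181, 194, 175 and 149 in WT. As counted most WT values were the higher ones, and after centring the groups overlapped. The difference was -0.04 ± 0.09 (adjusted p = 0.823), with a 95% interval from -0.23 to 0.15. No match to any of the 4 motifs was found in the window printed above.

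The region that carried most tags between Ctsk and Ctss lay in the windows of both, at chr3:95511721-95512245, 12.7 kb downstream of the Ctsk start. It had 187, 193, 141 and 202 tags in KO and 223, 244, 213 and 182 in WT, so KO replicate 3 was higher and KO replicate 2 lower than the other KO libraries. The difference was -0.05 ± 0.10 (adjusted p = 0.812, 95% interval from -0.24 to 0.15). Both this value and that of the Ctsk promoter turned positive without KO replicate 2, at 0.061 and 0.0047. The 3 intergenic regions nearer to Ctss had differences of 0.14, 0.20 and 0.19, none of them called. Just upstream of Ctsk, chr3:95497727-95498015 had a peak in all 4 WT libraries, with 44, 48, 40 and 31 tags, and in 2 KO libraries with 44 and 43 tags.

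**Figure D3:**
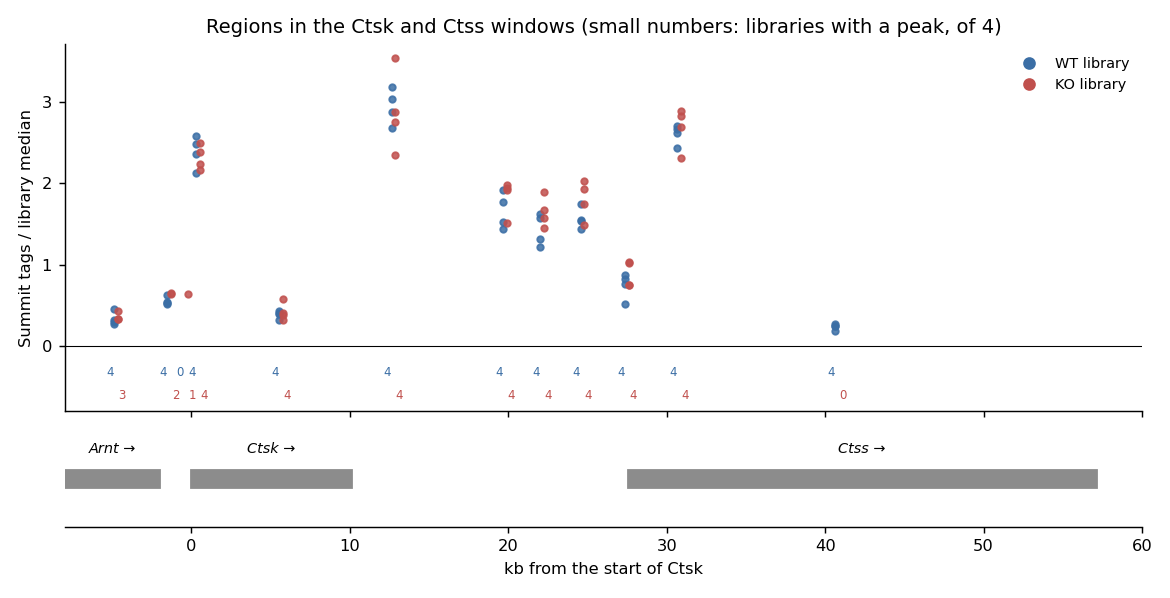
Relative height of every peak in the Ctsk and Ctss windows, as summit tags divided by the library's median (vertical axis), by distance from the Ctsk start in kb. Each point is 1 library and the small numbers count WT (upper) and KO (lower) libraries with a peak. WT and KO points overlap at the Ctsk promoter and at the 5 regions shared with the Ctss window, and the Ctss intron region at 40.7 kb has WT points only.

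Ctss (chr3:95526786-95556403, plus strand) had the lowest promoter of the 9 and the only member region found in every WT and no KO library. The promoter region, chr3:95526626-95526970, had 51, 50, 61 and 59 tags in KO and 36, 79, 61 and 46 in WT. The groups overlapped and the difference of 0.26 ± 0.16 was not called (adjusted p = 0.304). A region in intron 2 (chr3:95529676-95530254) was higher than the promoter, with 155 to 183 tags in KO and 157 to 222 in WT and a difference of 0.04 ± 0.09.

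The region called only in WT was in intron 3 of Ctss (chr3:95539870-95540168). It had 19, 17, 18 and 15 tags in WT, and each KO library lacked a peak there. It was low in all 4, at a mean percentile of 19.7 of peak strength in their lists, but above the smallest summit that any KO list held, which was 6 to 9 tags. Of the consensus regions (a peak in at least 2 libraries), 0.82% had a peak in 4 WT and 0 KO libraries, and the members had 1 of 78. When every list was cut to the length of the shortest, 1 of the 4 WT peaks was lost and the count became 0. A region missing from a list may still be open below the caller's threshold, so the absence in KO is not a value of 0.

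No member region had a peak in all 4 KO and no WT library, a pattern of 0.285% of consensus regions. None had a peak in 4 KO and 1 WT libraries either, where the share of consensus regions was 0.44%. The patterns of 4 WT and 1 KO, 3 WT and 0 KO, and 3 KO and 0 WT libraries had 1 member each, and each of these lay close to a stronger region. Upstream of Ctsd, chr7:142404575-142404956 had 34, 52, 43 and 31 tags in WT and 35 in KO replicate 1_3 only (4 WT and 1 KO libraries, 1.21% of consensus regions), 496 bp from its neighbour. In intron 7 of Mindy1, chr3:95294395-95294624 had 46, 45 and 46 tags in the WT libraries other than replicate 4 and no other peak (3 WT and 0 KO, 1.43%), 313 bp from the strongest region of the Prune1 window. Upstream of Ctsz, chr2:174439975-174440226 had 78, 85 and 58 tags in the KO libraries other than replicate 2 and none in WT (3 KO and 0 WT, 0.47%), 140 bp from a region with a peak in all 8. Whether such a flank is listed as its own peak depends on how the caller split the neighbourhood, and that was not tested.

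**Figure D4:**
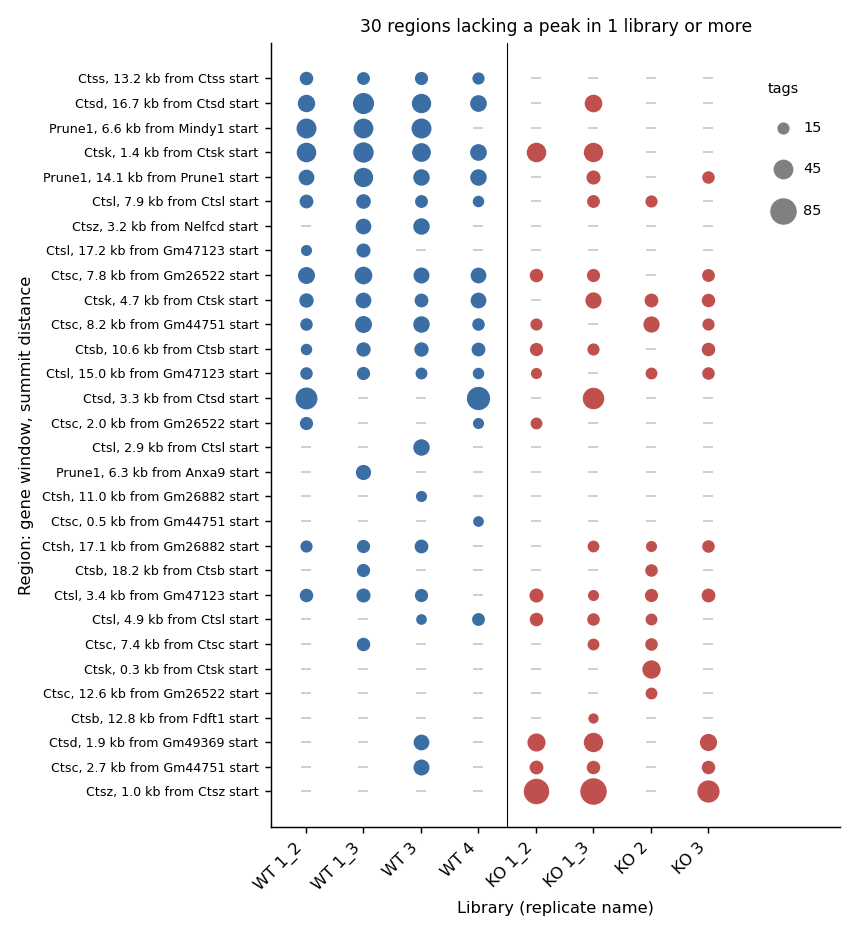
Summit tags (area of the point) in each library (horizontal axis, WT left and KO right of the line) for the 30 regions that lacked a peak in at least 1 library, named by gene window and by the distance of the summit from the nearest transcript start (vertical axis). A dash is a library with no peak. Rows are ordered from the Ctss intron with 4 WT and 0 KO libraries to the Ctsz flank with 3 KO and 0 WT libraries.

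Over the 30 regions with an incomplete set of peaks, more WT than KO libraries had a peak in 19 (63.3%) and more KO than WT libraries in 9. Over the whole genome 55.7% of incomplete regions had more WT libraries and 29.4% more KO libraries. The members thus leaned to WT about as all regions did. Each library had 66 to 74 of the 85 regions, with 66, 71, 66 and 66 in KO and 71, 73, 74 and 69 in WT. These regions were weak, at a median strength percentile of 17.5 within their lists, against 66.5 for the 55 complete ones.

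Ctsd (chr7:142375911-142388038, minus strand), the aspartic protease gene, had the most regions, 15 with 12 compared, and a promoter that was called higher in KO. The promoter region, chr7:142387698-142388201, with its summit in the 5′ UTR of exon 1, had 132, 116, 149 and 141 tags in KO and 110, 136, 132 and 117 in WT. KO replicates 2 and 3 were the highest, and KO replicates 1_2 and 1_3 lay within the WT range after centring. The difference was 0.33 ± 0.11, or 1.26-fold more in KO, with an adjusted p of 0.039, and the exact permutation test over the libraries gave a p of 0.143 (2-sided; the smallest these 70 labelings can give is 0.0286). The call was lost in 8 of 18 other settings, 5 of them without a single library (KO replicate 2 or 3, or WT replicate 1_2, 1_3 or 3), where the difference was 0.26 to 0.35 with an adjusted p from 0.061 to 0.173. The CLEAR letters printed above lie 15 bases from the summit.

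Upstream of Ctsd a row of strong regions had no call. The strongest, chr7:142397991-142398470, had 240, 228, 199 and 185 tags in KO and 227, 303, 275 and 243 in WT. Its groups overlapped and its difference was -0.08 ± 0.08 (adjusted p = 0.572). At chr7:142399232-142399754 all centred KO values were above all WT values with a difference of 0.13 ± 0.08 (adjusted p = 0.34). On the other side of the gene, in intron 2 of Ifitm10, a gene of the interferon-induced transmembrane protein family, 3 regions had differences of -0.35, -0.37 and 0.35 (adjusted p from 0.060 to 0.099), and none was called. Among the fits with 1 library left out, the first passed the threshold only without WT replicate 1_3, at -0.46. The next passed without KO replicate 2, at -0.51, and without WT replicate 1_3, at -0.50. The last passed only without WT replicate 4, at 0.51. Each stayed uncalled in the rest of these fits. On the 6 libraries whose replicate numbers occur in both genotypes, the regions at -0.37 and 0.35 were called, at -0.42 and 0.53. That held with and without a replicate block.

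Ctsz (chr2:174427493-174439039, minus strand) had 7 regions, and the 1 called belonged to its neighbour. That region, chr2:174415508-174416352, was at the start of Nelfcd, which encodes a subunit of the negative elongation factor that holds RNA polymerase near promoters. It had 125, 100, 105 and 97 tags in KO and 111, 96, 90 and 93 in WT, and the groups overlapped after centring. The difference was 0.34 ± 0.12 (1.27-fold) with an adjusted p of 0.0497, and it was called in 7 of 18 other settings only. Without KO replicate 1_2, 2 or 3 or WT replicate 1_3 or 3 it was 0.23 to 0.34 with an adjusted p from 0.090 to 0.225. The Ctsz promoter region (chr2:174438774-174439162) had 197, 199, 142 and 135 tags in KO and 161, 218, 174 and 141 in WT, with KO replicates 1_2 and 1_3 high and the other KO libraries level with WT. Its difference was 0.16 ± 0.09 (adjusted p = 0.264). The strongest region, in intron 2 (chr2:174437384-174438096), had 293, 235, 243 and 195 tags in KO and 248, 336, 277 and 193 in WT, with a difference of 0.10 ± 0.09 (adjusted p = 0.483).

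Ctsh (chr9:90054152-90076089, plus strand) had a high promoter with overlapping genotypes and weaker introns that leaned to WT. The promoter region, chr9:90054112-90055049, had 269, 263, 266 and 215 tags in KO and 252, 341, 277 and 238 in WT. Its difference was 0.09 ± 0.08 (adjusted p = 0.498). In intron 8, chr9:90067291-90067789 had 79, 71, 74 and 58 tags in KO and 101, 134, 104 and 75 in WT. Every centred KO value was below every WT value there, but the difference of -0.32 ± 0.12 was not called (adjusted p = 0.069), nor was that of an intron 1 region at -0.41 ± 0.17 (adjusted p = 0.098). Among the fits with 1 library left out, both passed the threshold only without WT replicate 4, at -0.37 and -0.51 (adjusted p = 0.038 for each). On the 6 libraries whose replicate numbers occur in both genotypes, both were called with and without a replicate block, at -0.41 and -0.54. The strongest other region, at the far edge of the window (chr9:90033846-90034353), had 273, 276, 235 and 226 tags in KO and 245, 291, 288 and 226 in WT. After centring KO was above WT in every pairing of libraries, by 0.16 ± 0.08 (adjusted p = 0.205).

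Ctsc (chr7:88278085-88310888, plus strand) had the highest promoter of the 9. The region chr7:88277669-88278355 had 557, 482, 453 and 461 tags in KO and 530, 637, 555 and 443 in WT. The groups overlapped and the difference was 0.07 ± 0.07 (adjusted p = 0.56), with a 95% interval from -0.07 to 0.22. The next strongest region, 0.686 kb upstream of the start (chr7:88277219-88277580), had 131, 157, 133 and 133 tags in KO and 178, 266, 161 and 131 in WT, and also carried PU.1 letters. Its difference was -0.15 ± 0.10 (adjusted p = 0.353). The other regions of the Ctsc window had at most 68 tags in any library.

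Ctsl (chr13:64359337-64370890, minus strand) had a single strong region, its promoter. The region chr13:64370162-64370822 had 225, 194, 191 and 178 tags in KO and 203, 268, 214 and 183 in WT, and a difference of 0.08 ± 0.08 (adjusted p = 0.57). All other regions in its window were weak, with at most 35 tags, and only 1 of them had a peak in all 8 libraries. The highest of these by mean tags was listed once, 2.93 kb upstream in WT replicate 3, with 30 tags.

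**Figure D5:**
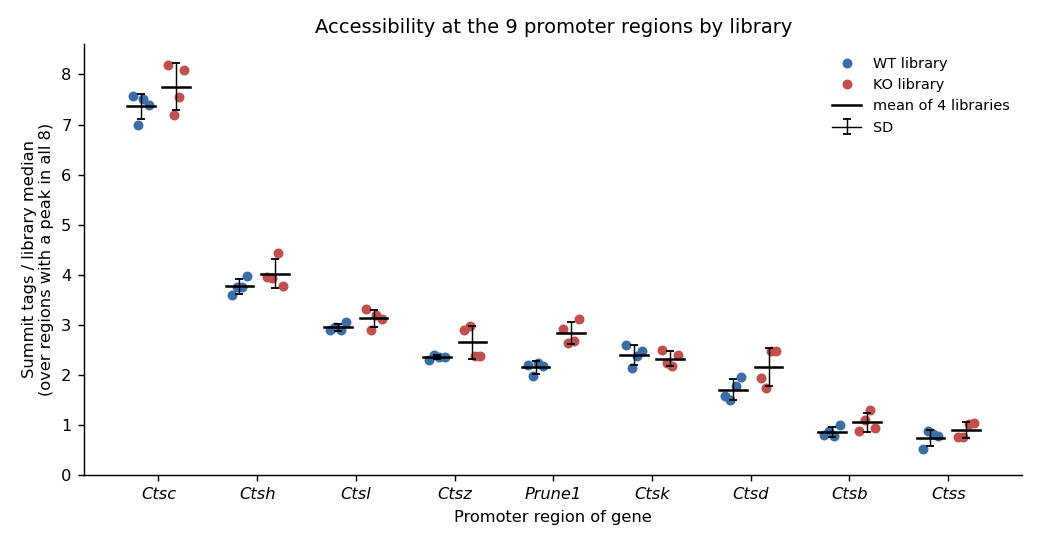
Relative height of the promoter region of each gene (summit tags divided by the library's median over regions with a peak in all 8 libraries, vertical axis) in the 4 WT and 4 KO libraries, with the mean (line) and SD (bar). Ctsc lies highest at 7.0 to 8.2 and Ctss lowest at 0.51 to 1.04, and only at Prune1 do all KO points (2.64 to 3.12) lie above all WT points (1.97 to 2.24).

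The order of promoter heights was largely the same in all libraries. Over the 8 libraries the Ctsc promoter had 515 ± 67.1 tags (mean, SD), Ctsh 265 ± 36.5 and Ctsl 207 ± 29.2, and each was above the next in 8 of 8 libraries, except that Ctsl was above Ctsz in 7. Ctsz (171 ± 31.2), Prune1 (168 ± 20.4) and Ctsk (161 ± 22.7) did not separate, with Ctsz above Prune1 in 5 libraries and Prune1 above Ctsk in 4. Ctsd followed with 129 ± 13.5, below Ctsk in 6 libraries, and was above Ctsb (64.8 ± 10.8) in all 8. Ctsb was above Ctss (55.4 ± 12.8) in 6. The height of a peak is compared here over the same width at each gene, and it does not measure how much a gene is expressed.

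Other genes of the same system were counted in the same way from lists. Of 8 further lysosomal proteases (Ctsa, Ctse, Ctsf, Ctsg, Ctso, Ctsw, Lgmn and Tpp1), 36 regions were compared, of which 1 was lower (2.78%, against 7.03% of all tested regions) and 6 were higher in KO (16.7%, against 5.81%), with a median difference of 0.09 on the log2 scale. Of the 6, 4 lay in the window of Ctse alone. The cystatins Cst3, Cst7, Cstb and Cst6, which inhibit cysteine cathepsins, had 8 compared regions and 0 calls. Tfeb, Tfe3 and Mitf, which switch on lysosomal genes, had 27, of which 2 were lower (7.41%) and 1 was higher (3.70%), with a median of 0.05. The placental cathepsins beside Ctsl (Ctsj, Cts3, Cts6, Cts7, Cts8, Ctsm, Ctsq and Ctsr) had 2 regions in all and 1 that could be compared, which was not called.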

How the data were processed

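ATAC-seq was done by the authors on sorted AMs of 4 KO and 4 WT samples. Per the study's methods and the submitters' processing notes, the authors used cutadapt for trimming, Bowtie2 for alignment to mm10, dropped duplicates and called peaks in each library with MACS3 at a q-value of 0.05 after shifting and extending cuts to 200 bp. The deposited lists give a fold (the ratio of summit pileup to local background, each with 1 added), a −log10 p-value, a −log10 q-value and the summit. Whole tag numbers gave back the p-value of 100% of peaks within a relative error of 1e-05. Depth per library is given by the background, 1.12 to 1.86 tags per 200 bp in KO and 1.42 to 2.26 in WT. Read totals of the libraries were not used, and intervals cover the spread between samples only.

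The authors tested read counts. The deposited lists hold none, so limma 3.58.1 (R 4.3.3, trended prior variance) was fitted to log2(summit tags + 0.5), computed here from the deposited ratio and −log10 values, over 47499 regions with a peak in all 8 libraries. Single values were also tested by exact permutation. Sequence was read from RefSeq GRCm38 with pysam 0.24.0. Members, gene lists and tests were chosen with earlier results of these data known. Regions named with values in every library were the promoter region of each member, all called regions, all with a peak in 4 libraries of one genotype and at most 1 of the other, and the strongest other region of each member. Other regions described were chosen after their values were seen. Alternatives were 2 other scalings, another pseudocount, filters on height and q, other merging rules, windows of 2 kb, replicates 1_2 and 1_3 as 1 sample, a replicate block and leaving out each library.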

Additional observations from a re-analysis of the deposited data

Results flagged for a closer look

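The number of member regions with a peak was 71 in KO replicate 1_3 and 66 in each other KO library, so the gap made up the whole range of the group (a ratio of 1, above the 95% critical value of Dixon's test for 4 samples). Among 38 sets of 4 libraries tested, 1 was flagged, and chance would flag about 1 set in 20.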

How the results depend on the processing

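The count of member regions lower in KO, 1 as reported, was 0 with windows of 2 kb and 1 to 3 when 1 library was left out (2 without KO replicate 2, and 3 without WT replicate 1_3 or WT replicate 4). The count of regions higher in KO, 3 as reported, was 0 with background depth, 1 with quantile normalisation and 1 to 4 when 1 library was left out (1 without KO replicate 2, KO replicate 3, WT replicate 1_3 or WT replicate 3). Over all tested regions, 6096 were called as reported and 2563 with background depth. Lower in KO were 3337 of 47499 as reported and 2649 of 48356 without KO replicate 2. They were 2858 of 47591 without WT replicate 1_3 and 3216 of 48609 without WT replicate 4. Higher in KO were 2759 of 47499 as reported, 575 with background depth and 2363 with quantile normalisation. They were 2232 of 48356 without KO replicate 2 and 1845 of 48090 without KO replicate 3. Without WT replicate 1_3 they were 2195 of 47591, without WT replicate 3 1765 of 47827, and without WT replicate 4 3192 of 48609. The count of regions called only in WT, 1 as reported, was 0 with lists of equal length, 3 if 1 library may depart, and 1 to 2 when 1 library was left out (2 without KO replicate 1_3 or WT replicate 4). The count of regions called only in KO, 0 as reported, was 1 if 1 library may depart and 0 to 1 when 1 library was left out (1 without KO replicate 2). If 1 library may depart, the WT patterns taken in held 0.82%, 1.21% and 1.43% of consensus regions. The KO patterns held 0.285%, 0.44% and 0.47%. Shares of consensus regions for the other rules were not counted. The cause of these changes was not tested, other than that smaller windows hold fewer regions.

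The replicate numbers 1_2, 1_3 and 3 occur in both genotypes. Deviations of same-numbered libraries correlated by 0.056, 0.116 and 0.037 over regions, and each library correlated best with its own number, which is a hint from the data. The numbers were not taken as a pairing. With the replicate block on those 6 libraries the lower count was 4. It was also 4 on the same 6 libraries without a block, an alternative chosen after seeing the data. The higher count was 4 with the block and 3 without it. All are of 58 member regions compared. Of all 49692 regions compared, 3268 were lower with the block and 2723 without it. Higher were 3914 with the block and 2700 without it. The Ctsk promoter value was 0.018 and that of the region between Ctsk and Ctss 0.070 in both of these fits.

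Values near 0 changed sign elsewhere. The Mindy1 intron region (0.0048 as reported) was -0.051 with background depth, -0.060 with quantile normalisation, -0.0047 with a pseudocount of 5, -0.032 with replicates 1_2 and 1_3 as 1 sample, -0.0030 with −log10 q of at least 5, and from -0.074 to 0.076 when 1 library was left out. The Ctsc promoter was -0.014 with quantile normalisation. The Ctsk promoter ran from -0.089 to 0.0047 and the region between Ctsk and Ctss from -0.147 to 0.061 when 1 library was left out. Of 350 comparisons of a named region with another setting, 311 kept direction and side of the threshold. Absence from a library's list is no level, and read totals were not used.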

Other observations

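Calls of the other gene lists were looked at after their counts were known, so they are named after their values were seen. In the Ctsa window (Ctsa encodes the protective protein of lysosomes) 1 region was lower in KO, chr2:164859613-164860078, and its nearest transcript start was that of Pltp, the phospholipid transfer protein gene, 2.12 kb away. It had 124, 88, 72 and 92 tags in KO and 168, 193, 165 and 167 in WT, with every KO library below every WT library. The difference was -0.69 ± 0.11 (adjusted p 1.54e-05), and it was called in 18 of 18 other settings, with values from -0.80 to -0.51.

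The 4 regions higher in KO in the Ctse window (cathepsin E is an aspartic protease of endosomes) had the start of Rab7b, which encodes a small GTPase of late endosomes, as their nearest. The strongest difference was at chr1:131679543-131680139, 8.86 kb from that start, with 93, 80, 70 and 64 tags in KO and 57, 66, 39 and 26 in WT, a difference of 0.99 ± 0.16. The others differed by 0.38 to 0.56, and with background depth 2 of the 4 were no longer called. Lgmn, which encodes legumain, a protease that processes cathepsins, had 2 regions higher in KO. The one 5.86 kb from its start had 56, 73, 63 and 50 tags in KO and 34, 70, 42 and 28 in WT, a difference of 0.76 ± 0.16 called in 18 of 18 other settings. The one at its promoter differed by 0.27 ± 0.09 and was called in 7 of 18. Mitf and Tfeb each had 1 region lower in KO, by -0.31 ± 0.10 and -0.29 ± 0.09, and Mitf had 1 higher at its promoter, by 0.26 ± 0.08. These 3 were called in 8, 9 and 12 of 18 other settings and none with background depth.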
